A study of Mus musculus with 9 samples.

Results

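The genes described here are 10 markers of Kupffer cells and other macrophages, read in the livers of fructose-fed rats and their controls. They were taken from the count table by gene name alone (Clec4f, Vsig4, Marco, Cd163, Csf1r, Adgre1, C1qa, C1qb, C1qc and Cd68), and all 10 were found among the 19686 genes of the table. Of the 10 markers, 10 passed the filter on low counts in each of the 3 comparisons.

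Liver RNA was sequenced from 9 male Wistar rats, with 3 rats in each group and 1 library per rat. The control group drank purified water and received saline by gavage. The model group drank 15% fructose, a diet used to bring on a metabolic syndrome, and received saline by gavage. The HME group, whose libraries carry the label DSS, drank the same fructose and received 1.8 g/kg of a 50% methanol extract of Danggui-Shaoyao-San, a herbal formula of traditional Chinese medicine. All rats were treated for 8 weeks and fasted for 12 h before they were killed under chloral hydrate. The age of the rats was not given in the sources used here. Although the organism is labelled as mouse, the strain is given as Wistar rat and the table uses rat gene identifiers, and the samples are treated as rat. Nothing in the sources says whether rats of 1 group shared a cage, so the p-values cover the spread between these rats only.

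Kupffer cells are the macrophages that live in the liver sinusoids, where they take up bacteria, old red blood cells and modified lipoproteins from portal blood. They depend on signals through the colony stimulating factor 1 receptor and keep their identity through contact with sinusoidal endothelial cells, stellate cells and hepatocytes. Clec4f and Vsig4 are textbook markers of resident Kupffer cells, and Marco and Cd163 mark subsets or states of resident macrophages. Csf1r, Adgre1 (F4/80), Cd68 and the C1q chains are shared by resident and recruited macrophages. In fatty liver disease resident Kupffer cells can be lost and replaced by cells derived from blood monocytes. Whole liver RNA was measured here, so fewer macrophages and less RNA per macrophage cannot be told apart.

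Total counts were 14345819 to 26837227 per library, and the 10 markers together took 0.0310% to 0.0936% of them. The lowest count of any marker in any rat was 38 and the highest was 6815. Levels are given as CPM, read counts scaled by library size and by the trimmed mean of M-values (TMM), and no gene lengths were used, so levels are compared between rats and not between genes. As a check of the liver label, Alb (albumin), the main product of hepatocytes, averaged 101232 to 128009 CPM in the 3 groups. Model 1 stood apart from the other libraries on the second principal component of all genes, with a score of 62.7 against -21.7 to 19.8. For the markers themselves control 1 was the highest library in 6 of the 10, and model 3 was the lowest in 10 of the 10.

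Clec4f (ENSRNOG00000013137) encodes a C-type lectin receptor of Kupffer cells. It was measured at 274, 108 and 127 CPM in control rats 1 to 3, at 151, 175 and 81.6 CPM in the model rats and at 127, 118 and 166 CPM in the HME rats. Control 1 lay far above the other 8 rats, the remaining values ran from 81.6 to 175 CPM, and the 3 groups overlapped. The means were 169 ± 90.8 CPM in control, 136 ± 48.3 in model and 137 ± 26.0 in HME (SD, n = 3 each). By edgeR's quasi-likelihood test the log2 fold change of model against control was -0.32 (SE 0.393, adjusted p = 0.770), and that of HME against model was 0.02 (SE 0.272, adjusted p = 0.992). The interval of the latter, -0.61 to 0.65, leaves room for changes in either direction.

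Vsig4 (ENSRNOG00000038132) encodes a complement receptor that binds fragments of C3 and serves in the clearance of bacteria. It stood at 34.0, 21.1 and 30.04 CPM in the control rats, at 26.2, 38.1 and 13.6 CPM in the model rats and at 31.2, 20.1 and 30.1 CPM in the HME rats. The highest and the lowest of the 9 values were both in the model group, and the group means of 28.4 ± 6.62, 26.0 ± 12.2 and 27.1 ± 6.11 CPM (SD, n = 3) differed by less than the spread within any group. No comparison reached an adjusted p in edgeR below 0.881.

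Marco (ENSRNOG00000049303) encodes a scavenger receptor for bacteria and particles. It was measured at 62.9, 8.80 and 42.3 CPM in the control rats, at 12.2, 13.4 and 2.34 CPM in the model rats and at 21.9, 13.9 and 26.2 CPM in the HME rats. The underlying counts were 1567, 148 and 636 in control, 283, 209 and 38 in model, and 405, 257 and 504 in HME. Control 1 and control 3 were far above all 3 model rats, control 2 fell within the model range, and every HME rat lay above every model rat, although HME 2 and model 2 were nearly tied. The means were 38.0 ± 27.3, 9.31 ± 6.07 and 20.7 ± 6.27 CPM in control, model and HME (SD, n = 3). From the lowest to the highest rat Marco ranged 26.9-fold, against 1.90-fold to 3.35-fold for the other 9 markers.

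The log2 fold change of Marco was -2.03 for model against control (SE 0.761, 95% interval -3.79 to -0.27), the largest of the 10 markers. It did not pass edgeR's test once adjusted over all genes (adjusted p = 0.310). For HME against model it was 1.15 (SE 0.537, interval -0.08 to 2.39, edgeR adjusted p = 0.669). DESeq2 gave the same size of change, with an adjusted p of 0.420. Against control the HME rats differed by -0.89 (SE 0.729, interval -2.77 to 0.99, edgeR adjusted p = 0.527). The direction of Marco was kept in each comparison when any 1 of the 6 rats was left out, with values of -2.49 to -1.45, 0.70 to 1.49 and -1.35 to -0.30, none of them called.

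Cd163 (ENSRNOG00000010253) encodes the receptor that takes up complexes of haemoglobin and haptoglobin. It was measured at 51.9, 32.3 and 40.3 CPM in control rats, at 21.1, 53.8 and 19.5 CPM in model rats and at 35.6, 31.3 and 33.9 CPM in HME rats. Model 2 had the highest value of all 9 rats, while model 1 and model 3 had the lowest. The HME rats were the most alike, with a coefficient of variation of 6.43% against 61.6% in the model group. The edgeR log2 fold change of model against control was -0.41 (SE 0.384, adjusted p = 0.693), and without model 2 it was -1.04 (adjusted p = 0.0872). The value of HME against model was 0.11 (SE 0.362, adjusted p = 0.965 in edgeR) and became 0.73 without model 2 (adjusted p = 0.141). That of HME against control was -0.31 (SE 0.161, adjusted p = 0.270 in edgeR).

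Csf1r (ENSRNOG00000018414) encodes the receptor for colony stimulating factor 1 and interleukin 34, on which macrophages depend for survival. It was measured at 77.4, 47.5 and 61.1 CPM in the control rats, at 37.5, 74.2 and 32.9 CPM in the model rats and at 45.3, 43.8 and 49.8 CPM in the HME rats. The model group was split as for Cd163, with model 2 near the top of the control range and the other 2 model rats below every control and HME rat. The control mean was 62.0 ± 15 CPM and the HME mean 46.3 ± 3.11 CPM (SD, n = 3), with HME 3 above control 2, so these groups overlapped. The log2 fold change of HME against control was -0.43 (SE 0.163, 95% interval -0.80 to -0.06), with an adjusted p of 0.148 in edgeR. For model against control it was -0.37 (SE 0.314, adjusted p = 0.660 in edgeR), and this value became -0.82 when model 2 was left out. For HME against model it was -0.05 (SE 0.286, adjusted p = 0.977 in edgeR), and without model 2 it turned to 0.40.

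Adgre1 (ENSRNOG00000046254) encodes the adhesion receptor known as F4/80. It was measured at 26.0, 14.985 and 20.9 CPM in control rats, at 14.3, 31.1 and 12.2 CPM in model rats and at 19.9, 16.6 and 22.8 CPM in HME rats. As for Cd163, model 2 was the highest rat, and the group means of 20.6 ± 5.52, 19.2 ± 10.3 and 19.8 ± 3.09 CPM (SD, n = 3) lay within the spread of each group. Its log2 fold changes were -0.12, 0.06 and -0.07 for model against control, HME against model and HME against control, with edgeR adjusted p of 0.917, 0.977 and 0.872.

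The genes C1qa (ENSRNOG00000012807), C1qb (ENSRNOG00000012749) and C1qc (ENSRNOG00000012804) encode the chains of C1q, the recognition molecule of the classical complement pathway. C1qa was measured at 102, 58.2 and 86.3 CPM in control, at 91.8, 93.9 and 53.5 CPM in model and at 74.9, 64.8 and 102 CPM in HME rats. C1qb stood at 82.2, 54.1 and 67.6 CPM in control, at 64.8, 75.1 and 40.9 CPM in model and at 63.1, 52.3 and 72.2 CPM in HME rats. C1qc stood at 96.9, 57.3 and 73.9 CPM in control, at 71.4, 80.9 and 46.6 CPM in model and at 66.8, 55.2 and 82.9 CPM in HME rats. The chains ordered the rats in nearly the same way, with control 1 or HME 3 at the top and model 3 at the bottom. Their log2 fold changes ran from -0.20 to -0.04 for model against control, from 0.02 to 0.06 for HME against model and from -0.16 to -0.03 for HME against control. The 95% intervals of C1qb were -0.72 to 0.37, -0.46 to 0.58 and -0.51 to 0.26 in that order.

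Cd68 (ENSRNOG00000037563) encodes a glycoprotein of macrophage lysosomes and endosomes. It was measured at 19.9, 14.0 and 14.9 CPM in control rats, at 15.3, 16.9 and 9.66 CPM in model rats and at 16.9, 12.1 and 18.7 CPM in HME rats. Control 1 and HME 3 were the highest and model 3 the lowest, and the groups overlapped. The log2 fold changes were -0.23 (SE 0.236), 0.20 (SE 0.248) and -0.04 (SE 0.192) for the 3 comparisons in the order above, with edgeR adjusted p of 0.728, 0.894 and 0.927.

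**Figure D1:**
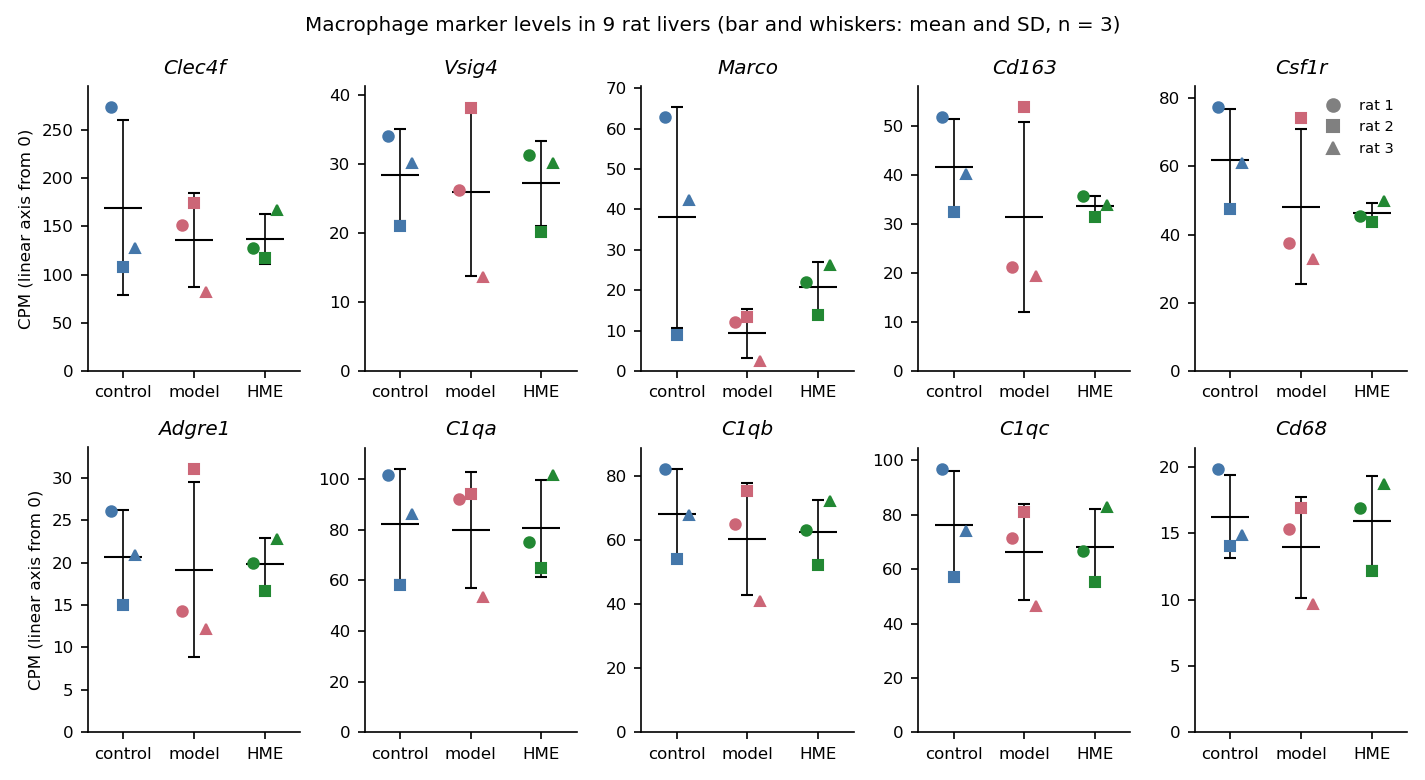
Level of each of the 10 markers in each rat, in CPM on linear axes that start at 0, by group, with a marker shape for the rat number and a bar with whiskers for the mean and SD (n = 3). Control 1 is the highest rat in 6 panels and model 3 the lowest in all 10, and Marco has the widest range, from 2.34 to 62.9 CPM.

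The comparison of model with control asked whether 8 weeks of fructose moved the macrophage markers. None of the 10 was called by edgeR at an absolute log2 fold change of 0.5 and an adjusted p of 0.01, where 0.0801% of all 12486 genes tested were called. At the looser adjusted p of 0.05 it was again none of the 10, against 0.601% of all genes. None of the 10 had groups that did not overlap, against 21.1% of all genes. Marco was the 1 marker with an unadjusted p under 0.05, against 13.2% of all genes, and DESeq2 called none of the 10, against 2.05% of all genes. All 10 log2 fold changes were below 0, with a median of -0.21 beside a median of 0.00 for all genes, of which 50.1% were lower. The markers moved together from rat to rat, as described below, so their shared sign is not 10 separate observations.

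The comparison of HME with model asked whether the extract changed the markers under the same fructose diet. EdgeR called none of the 10, where 0.136% of all 12502 genes tested were called, and none at the looser adjusted p of 0.05 (0.456% of all genes). None of the 10 had an unadjusted p under 0.05, against 8.02% of all genes. DESeq2 called none either (1.18% of all genes) and gave an unadjusted p under 0.05 for Marco alone, against 7.81% of all genes. Marco was also the 1 marker whose groups did not overlap, with HME higher, against 6.22% of all genes that were apart in that direction. Leaving Marco aside, the log2 fold changes ran from -0.05 for Csf1r to 0.20 for Cd68. Of the 10, 9 were above 0, against 50.1% of all genes, with a median of 0.06 beside 0.00 for all genes.

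For HME against control edgeR called none of the 10 and 1.48% of all 12633 genes tested, and at the looser adjusted p of 0.05 none of the 10 and 6.36% of all genes. The groups overlapped for each of the 10, while they were apart for 30% of all genes. Csf1r was the 1 marker with an unadjusted edgeR p under 0.05, against 24.3% of all genes, and DESeq2 called none of the 10, against 6.09% of all genes. The 10 log2 fold changes were all below 0, from -0.89 for Marco to -0.03 for C1qa, with a median of -0.14, where 50.9% of all genes were below 0. The comparisons share rats, since each group enters a pair of them, so their values are not independent. With 3 rats in a group an exact permutation test of a single gene cannot give a p below 0.1.

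**Figure D2:**
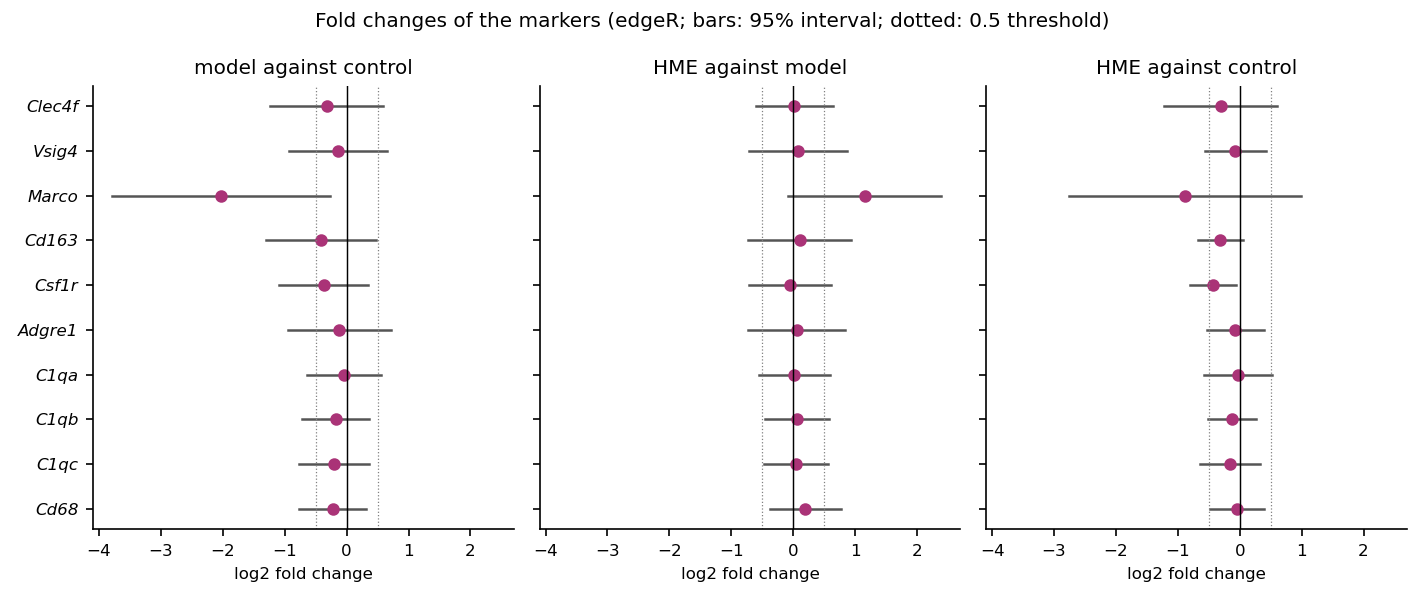
Log2 fold change of each marker in the 3 comparisons (points) with its 95% interval worked back from the edgeR test (bars), the line at 0 and dotted lines at the threshold of 0.5 in either direction. The interval leaves out 0 for Marco in model against control (-3.79 to -0.27) and for Csf1r in HME against control (-0.80 to -0.06), and neither passed after adjustment over all genes.

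Within each group the markers varied more than all genes did, by the median coefficient of variation. The median coefficient of variation of the 10 markers was 25.2% in control, 41.3% in model and 19.6% in HME rats, beside 13.1%, 20.3% and 13.9% for all genes in the same groups. The spread between rats was 1.61 to 26.5 times what counting error alone gives, with a median of 7.5 over the 30 pairs of gene and group, so it was above counting error in every one of them. The summed level of the 10 markers was 826, 416 and 564 CPM in control rats, 506, 652 and 313 CPM in model rats and 503, 428 and 605 CPM in HME rats. The range of the HME rats lay inside that of the control rats, and both overlapped the model rats.

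Over the 9 rats the markers varied together. Pearson's r between the log2 CPM of marker pairs ran from 0.55 for Cd163 with C1qa to 0.99 for C1qb with C1qc, with a median of 0.83 over 45 pairs. Within groups, after each group's mean was taken away, the median was 0.86 and 45 of 45 were above 0. These points share library and depth, and are given as a description. Cd163 and Csf1r formed the closest pair outside the C1q chains (r = 0.97), and Cd163 had the lowest mean correlation with the other markers (0.758) and C1qb the highest (0.893). Model 2 was highest for Cd163, Vsig4 and Adgre1, whereas control 1 was highest for Clec4f, Marco, Csf1r, C1qb, C1qc and Cd68.

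Ratios of counts within a library remove the shared part of this variation, and 12 such ratios were computed. C1qc over C1qb was 1.06 to 1.18 in all 9 rats, a coefficient of variation of 4.08%. Cd68 over C1qb was 0.220 to 0.268, and C1qa over C1qb was 1.076 to 1.42. No ratio among the C1q chains ranged more than 1.32-fold over the 3 groups, although the levels themselves ranged up to 2.08-fold. Cd163 over Csf1r was also narrow, from 0.564 to 0.786.

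Adgre1 over Csf1r was 0.336, 0.316 and 0.342 in control rats, 0.381, 0.418 and 0.370 in model rats and 0.440, 0.379 and 0.458 in HME rats. All 6 fructose-fed rats lay above all 3 control rats, while model and HME overlapped. Neither gene was called on its own, the ratio was singled out after the values were seen, and no test is given for it. Marco over Csf1r, in contrast, ranged 11.4-fold, from 0.0710 in model 3 to 0.813 in control 1.

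Marco was also set against the geometric mean of the other 9 markers, so that a shared change in macrophage RNA falls out. This ratio was 0.998, 0.237 and 0.887 in the control rats, 0.301, 0.229 and 0.0854 in the model rats and 0.493, 0.377 and 0.517 in the HME rats. Each HME rat exceeded each model rat, and control 2 was again within the model range. Marco was picked for this ratio with its values known, and the ratio reuses the Marco levels given above. It is therefore not a separate observation, and no test is given for it. As a share of the counts of the 10 markers, Marco was 2.12% to 7.61% in control, 0.748% to 2.41% in model and 3.24% to 4.36% in HME rats. Clec4f was 22.5% to 33.1% of the same counts over all rats, and the C1q chains 34.0% to 45.1%.

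**Figure D3:**
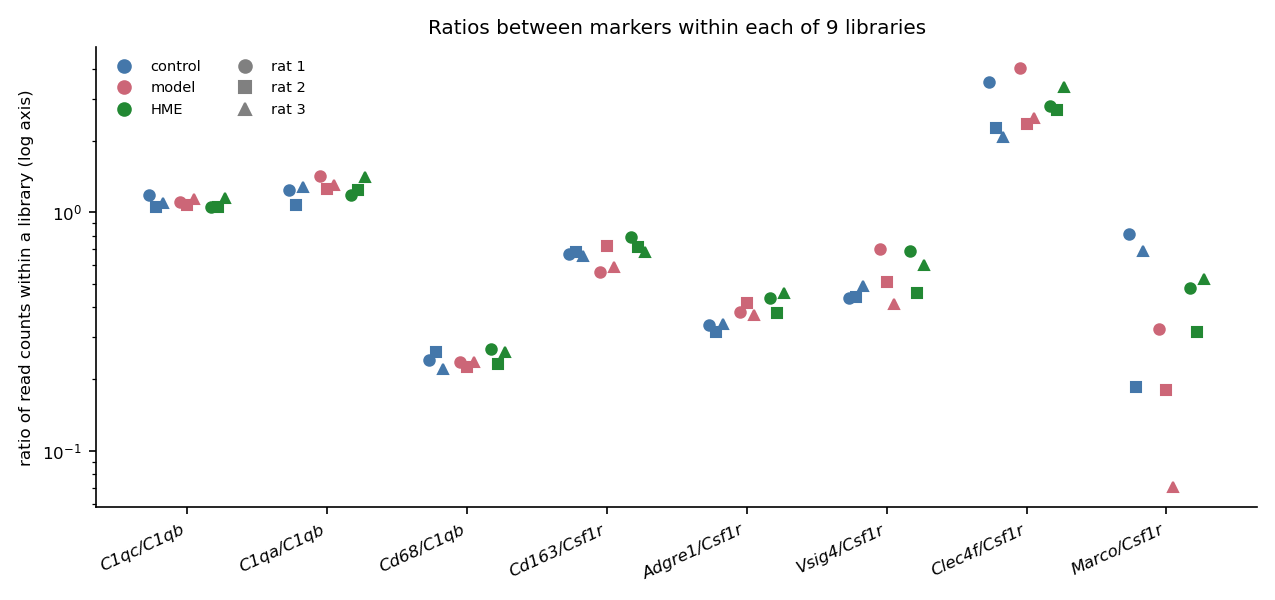
Ratios between the read counts of marker pairs within each of the 9 libraries, on a log axis, coloured by group with a shape for the rat number. The ratios among C1qa, C1qb, C1qc and Cd68 are tight in every group, Adgre1/Csf1r is lowest in the 3 control rats (0.316 to 0.342), and Marco/Csf1r spreads from 0.0710 to 0.813.

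Markers of sinusoidal endothelial cells and of several kinds of leukocyte moved with the macrophage markers across the libraries. The summed level of 7 sinusoidal endothelial markers was 339, 203 and 239 CPM in control rats, 175, 378 and 144 CPM in model rats and 295, 238 and 225 CPM in HME rats. Its r with the mean profile of the 10 markers was 0.83 over 9 rats, and none of the 7 was at 0 in any rat. The 6 general leukocyte markers summed to 33.1 to 58.7 CPM in control, 31.1 to 60.0 CPM in model and 34.5 to 39.9 CPM in HME rats (r = 0.87), again with none at 0. Control 1 and model 2 were the highest rats and model 3 was the lowest for both lists, as for the macrophage markers. The summed T cell, B and plasma cell, natural killer cell and dendritic cell lists had r of 0.81, 0.80, 0.80 and 0.81 with the marker profile. The neutrophil list had r = -0.05. The 8 stellate cell markers, from 81.8 to 136 CPM, followed the profile less closely (r = 0.29), and the summed hepatocyte markers, carried by Alb and Tf (transferrin), had r = -0.43. Taken singly the 8 hepatocyte markers ran from -0.49 for Alb to 0.63 for Cps1. The part of sinusoidal cell content in the differences between rats was not tested.

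The ratio of the summed macrophage markers to the summed endothelial markers was 2.05 to 2.44 in control, 1.72 to 2.88 in model and 1.70 to 2.69 in HME rats. To the leukocyte markers it was 11.9 to 14.1, 10.04 to 12.9 and 12.4 to 15.5. The groups overlapped in both ratios.

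**Figure D4:**
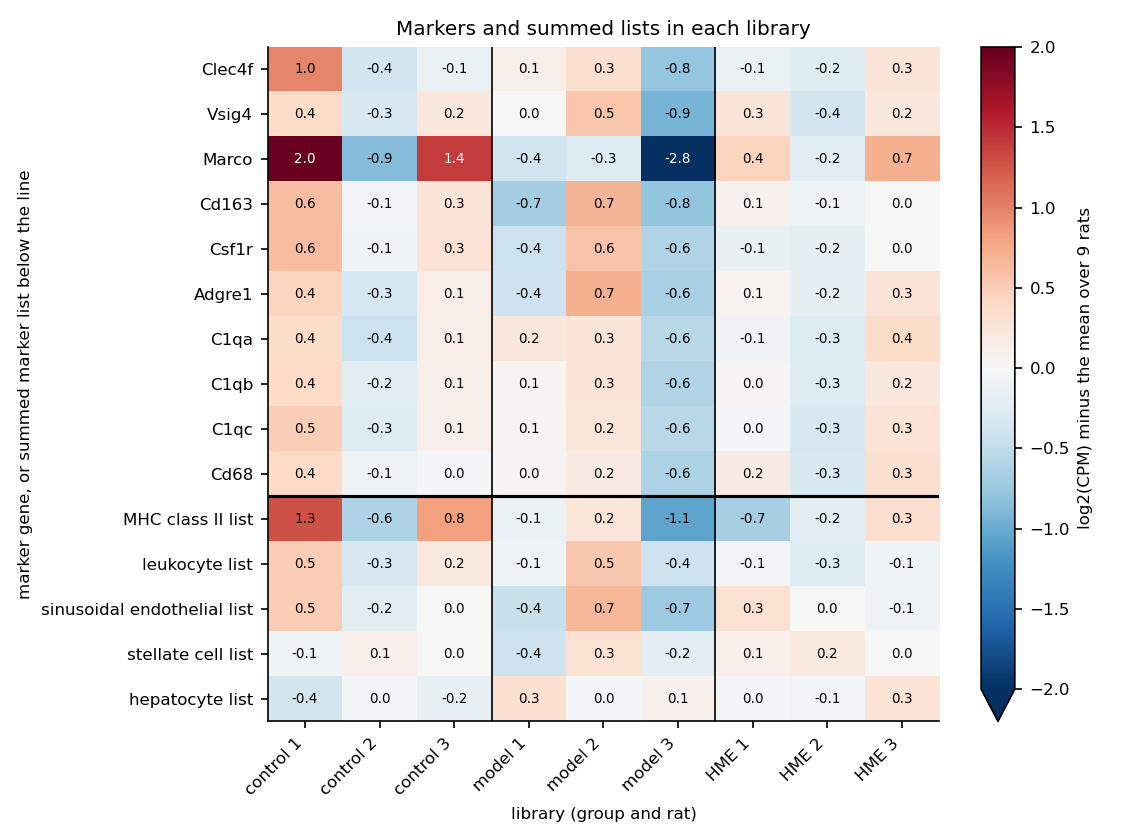
Log2 CPM of each marker minus its mean over the 9 rats, by library, with summed lists of other genes below the line, and with a colour scale that ends at 2 in either direction. Control 1 is high and model 3 is lowest for every marker, model 3 is also the lowest library for the MHC class II, leukocyte and endothelial lists, and the summed hepatocyte list has r = -0.43 with the marker profile.

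Among 12887 genes, the 10 whose log2 CPM was most like the mean profile of the markers over 9 rats were Atp2a3, Stom, Anxa3, Cd300a, Ccl6, Rac2, Aggf1, Podxl, Hpgd and Hyal2, with r from 0.94 to 0.96. Rac2 is a GTPase of blood cells, Cd300a an inhibitory receptor of leukocytes and Ccl6 a chemokine of rodent macrophages. In all 40 genes, or 0.310%, had an r of at least 0.9, and the median over all genes was 0.01. The nearest genes to single markers were looked up after the values were seen. For Cd163 it was Lyve1, a hyaluronan receptor of sinusoidal endothelium (r = 0.99). It was Aif1, a cytoplasmic protein of macrophages, for C1qa (r = 0.97), and Cfp, which encodes properdin, for Cd68 (r = 0.95). For the other markers it was Rac2 for Clec4f (r = 0.96), Cd300a for Vsig4 (0.97) and C1qb (0.96), and Hpgd for Marco (0.96). Sdc3 was nearest to Csf1r (r = 0.98), Tspan13 to Adgre1 (0.98) and Setmar to C1qc (0.96).

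Other Kupffer cell genes gave no call. Of 12 listed, 9 were tested, and neither edgeR nor DESeq2 called any in any comparison. For model against control, HME against model and HME against control, 0, 0 and 2 had an unadjusted edgeR p under 0.05. The shares of all genes were 13.2%, 8.02% and 24.3%. The list medians were -0.19, -0.03 and -0.36 in the same order. Cd5l, a secreted protein of tissue macrophages, was measured at 139, 56.0 and 86.1 CPM in control rats, 46.4, 96.0 and 46.7 CPM in model rats and 64.4, 47.0 and 68.1 CPM in HME rats. Control 1 and model 2 were again the highest. Id3, a transcription regulator of Kupffer cell development, went the other way, at 23.9 ± 2.27 CPM in control, 30.1 ± 3.16 in model and 35.8 ± 9.64 in HME (SD, n = 3), with an edgeR adjusted p of 0.382 for model and 0.105 for HME against control.

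Of 7 ligands and receptors that maintain macrophages, none was called by edgeR or DESeq2. In HME against control 1 had an unadjusted edgeR p under 0.05, against 24.3% of all genes. Csf1, the main ligand of Csf1r, was at 7.18 ± 1.2 CPM in control, 7.25 ± 3.38 in model and 6.93 ± 0.822 in HME (SD, n = 3), with an edgeR log2 fold change of 0.00 (SE 0.323) for model against control. The macrophage transcription factors (up to 10 tested) and the scavenger and phagocytic receptors (11 tested) had no call by either tool. They had 2 and 2 edgeR values of p under 0.05 over the 3 comparisons. Of all genes, 13.2%, 8.02% and 24.3% had such a value in model against control, HME against model and HME against control. Cebpb, a factor also abundant in hepatocytes, was at 88.0 ± 21.1, 156 ± 90.8 and 68.6 ± 8.89 CPM, and Msr1, a scavenger receptor, at 34.0 ± 12.1, 29.8 ± 20.3 and 31.4 ± 4.54 CPM in control, model and HME (SD, n = 3).

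MHC class II genes, which present antigen on macrophages, dendritic cells and B cells, had the list median farthest below 0 in model against control among the lists with over 3 genes tested. Of 10 genes 7 were tested, all 7 were lower in model than in control (median -0.89) and in HME than in control (median -0.77), and none was called by edgeR or DESeq2 in any comparison. In edgeR 1 had an unadjusted p under 0.05, in HME against control, where 24.3% of all genes did. Cd74, the invariant chain, was at 279, 76.6 and 190 CPM in control rats, 108, 134 and 54.8 CPM in model rats and 72.2, 101 and 149 CPM in HME rats. RT1-Da, a class II alpha chain, was at 109, 29.1 and 88.1 CPM in control, 39.1, 51.1 and 21.6 CPM in model and 27.1, 38.2 and 56.0 CPM in HME rats. Control 1 and control 3 were high and control 2 was low for both, as for Marco, so control overlapped the other groups. The edgeR log2 fold change of Cd74 in model against control was -0.89 (SE 0.470, adjusted p = 0.482). Genes of the RT1 family are alike in sequence, and reads may be split between them.

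Lysosome and complement genes, many of which hepatocytes express as well, had r of -0.04 and 0.03 between their summed levels, which abundant genes dominate, and the marker profile. Single genes of these lists could follow it closely, as Ctss (cathepsin S, r = 0.94) and Itgb2 (a leukocyte integrin chain, r = 0.92) did, both named after their values were seen. Beside Cd68, 12 lysosome genes were tested. At an adjusted p of 0.05 and a log2 fold change of 0.5, edgeR called 2 of them higher in HME than in control and none lower, against 3.07% of all genes called higher by that rule. Ctsl, the protease cathepsin L, was at 349 ± 34.2 CPM in control, 493 ± 27.2 in model and 597 ± 45.9 in HME (SD, n = 3), and rose in HME against control by a log2 of 0.77 (SE 0.127, adjusted p = 0.0102 in edgeR). Lamp2, a lysosomal membrane protein, rose by 0.73 (SE 0.127, adjusted p = 0.0120 in edgeR), from 202 ± 19.2 to 337 ± 32.5 CPM. The model rats were already at 347 ± 32.2 CPM of Lamp2, apart from control, with a log2 fold change of 0.78 that edgeR did not call (adjusted p = 0.0645) and DESeq2 did, and HME against model was -0.04. DESeq2 called both genes in HME against control. In edgeR both stayed past this rule when any 1 rat was left out.

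Complement partners of C1q and Vsig4 were compared by the same rule in HME against control. C1r, the protease that C1q activates, rose by a log2 of 0.85 (SE 0.161, edgeR adjusted p = 0.0173), from 559 ± 41.7 to 1013 ± 204 CPM (SD, n = 3), with the model rats at 816 ± 70.9 CPM. C1r missed the rule when HME 1, control 2 or control 3 was left out. C3, whose fragments Vsig4 binds, had a log2 fold change of 0.37 (SE 0.127, edgeR adjusted p = 0.113). Neither C1r nor C3 was called by edgeR at the stricter adjusted p of 0.01, while DESeq2 called C1r and C1s. The chains C1qa, C1qb and C1qc had log2 fold changes of -0.03, -0.13 and -0.16 in the same comparison.

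In HME against control the looser rule called 3.07% of all genes higher. Among genes of haemoglobin and haem handling listed beside Cd163, this held for Hpx (haemopexin). It was at 4682 ± 138 CPM in control, 7530 ± 2574 in model and 7047 ± 868 in HME (SD, n = 3). Its log2 fold change was 0.58 (SE 0.134, adjusted p = 0.0333 in edgeR), and it missed the rule when any 1 rat was left out. Hp (haptoglobin), at 7306 ± 762, 11042 ± 2826 and 9436 ± 1772 CPM in the 3 groups, did not pass. Of 6 genes tested on this list, edgeR called none at an adjusted p of 0.01. In model against control 3 had an unadjusted edgeR p under 0.05, against 13.2% of all genes. In HME against control it was 2, against 24.3% of all genes. DESeq2 called Hpx in HME against control, where it called 6.09% of all genes.

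Of 11 genes of monocyte-derived macrophages at most 5 could be tested, with none called by edgeR or DESeq2. In HME against control 1 had an unadjusted edgeR p under 0.05, against 24.3% of all genes. On this list Cd14, the co-receptor for endotoxin, was at 40.0 ± 17.8, 55.4 ± 6.63 and 62.1 ± 18.4 CPM in control, model and HME (SD, n = 3). Fabp5, a fatty acid binding protein on the lipid-associated list that many cell types express, was at 90.9, 95.6 and 54.8 CPM in control rats, 29.6, 22.9 and 34.2 CPM in model rats and 4.01, 5.66 and 4.94 CPM in HME rats. The 3 groups did not overlap in any pair. Its log2 fold change was -1.48 for model against control (SE 0.240, adjusted p = 0.0417 in edgeR), -2.56 for HME against model (SE 0.216, adjusted p = 0.00266) and -4.05 for HME against control (SE 0.247, adjusted p = 0.000271), all from edgeR. The last pair stayed called when any 1 rat was left out, at the looser adjusted p of 0.05, whereas the first missed that rule when any rat but control 3 was left out. The other 7 genes of that list that were tested were not called by edgeR, though DESeq2 called Lpl, a lipase that releases fatty acids from lipoproteins (3.13 ± 1.42, 9.04 ± 2.36 and 4.16 ± 0.365 CPM), in model against control and in HME against model. Among the others were Lgals3 (10.7 ± 3.97, 7.28 ± 2.86 and 8.70 ± 0.255 CPM) and Gpnmb (12.9 ± 7.92, 12.4 ± 5.53 and 12.3 ± 2.34 CPM).

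Of 13 inflammatory cytokines and chemokines, 5 could be tested in each comparison. In model against control 3 of them had an unadjusted edgeR p under 0.05 (2 higher, 1 lower), against 13.2% of all genes. The count was 1 in HME against model (8.02% of all genes) and 1 in HME against control (24.3%), both lower. Il18, a cytokine of Kupffer cells among other sources, was at 6.07 ± 1.0 CPM in control, 3.78 ± 0.857 in model and 3.03 ± 0.287 in HME (SD, n = 3), and fell in HME against control by 1.01 on the log2 scale (SE 0.202, adjusted p = 0.0208 in edgeR), past edgeR's looser rule, by which 3.29% of all genes were called lower, and DESeq2 called it at both stricter thresholds. It missed edgeR's looser rule when any rat but control 3 was left out. Il1b was at 3.43 ± 1.37, 3.05 ± 0.828 and 2.08 ± 0.509 CPM, and Cxcl1, a chemokine that draws neutrophils, at 0.935 ± 0.614, 6.83 ± 5.86 and 1.24 ± 0.609 CPM, and neither passed in edgeR in any comparison, while DESeq2 called Cxcl1 in model against control.

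Among the marker lists of lymphocytes and granulocytes most genes were near 0. The summed T cell markers were at 2.46 to 5.78 CPM over the 9 rats, the natural killer cell markers at 4.28 to 7.39 CPM, the neutrophil markers at 1.86 to 5.2 CPM and the dendritic cell markers at 5.79 to 11.5 CPM. The summed B and plasma cell markers were at 4.0 to 12.9 CPM. In HME against control the looser rule called 3.29% of all genes lower. Of these markers Jchain, which joins secreted antibodies, passed it (log2 fold change -1.33, adjusted p = 0.0258 in edgeR). Jchain missed the rule without HME 2, HME 3, control 1 or control 3. EdgeR called no gene of these lists at an adjusted p of 0.01, and 4 of their tests had an unadjusted p under 0.05. Of all genes, 13.2%, 8.02% and 24.3% had such a p in model against control, HME against model and HME against control. DESeq2 called Jchain in HME against control, where it called 6.09% of all genes.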

How the data were processed

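RNA-seq libraries from the livers of 9 male Wistar rats (3 control, 3 model, 3 HME) were analysed. The authors aligned reads with HISAT2 (2.0.5) and deposited raw counts per gene made with HTSeq (0.6.1) over exons without regard to strand, so reads of a gene and of a gene on the opposite strand cannot be told apart. Rnor_6.0 is the build in the submitters' processing notes. No rat gene lengths or sequences were used here.

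For each comparison the 6 libraries of its groups were fitted together by edgeR 4.0.16 in R 4.3.3 (filterByExpr, TMM scaling, robust quasi-likelihood test, two-sided). Benjamini-Hochberg adjustment covered all genes tested. Calls required a log2 fold change of 0.5 or more in size and an adjusted p no higher than 0.01, as in the study's methods. A looser rule used 0.05. The edgeR test gives no SE, so each SE was worked back from the log2 fold change and the F statistic of the test. Intervals are at 95% and take this SE with a t distribution. Alternatives were other scalings and filters, DESeq2 1.42.0, a fit over all 9 libraries, a replicate block and leaving out each rat. The edgeR steps were tested on simulated data.

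Genes were named by a rule: the 10 markers, list genes called or at an adjusted p of at most 0.05, up to 4 more per list by mean CPM, and the 10 genes most like the markers. The nearest genes to single markers, and C1s from a DESeq2 call, were added after their values were seen. The markers and lists were chosen with earlier results of these data known. Of the list symbols, 11 were not matched by name and are not analysed here. Some list genes are not reported here.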

Additional observations from a re-analysis of the deposited data

How the results depend on the processing

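None of the 10 markers was called under any alternative that was run, over 390 marker tests, and the lowest adjusted p was 0.0561, for Csf1r in HME against control without control 2. Over all genes, for model against control, HME against model and HME against control in that order, the number called was 10, 17 and 187. It was 71, 38 and 489 with no filter on low counts, 256, 147 and 769 with DESeq2, 25, 20 and 113 with all 9 libraries in 1 fit, and 75, 57 and 804 at an adjusted p of 0.05. With the library size alone it was 8, 11 and 238, and the median log2 fold change of all genes moved by -0.15 for model and -0.14 for HME against control. With a replicate block it was 0, 7 and 104. The labels of same-numbered rats give only a number, and whether these rats shared a cage or a sequencing run was not tested. The deviations of same-numbered rats correlated at -0.21 to -0.02, which cannot decide it with so few rats in a group. The block turned 1 marker value, Csf1r in HME against model, from -0.049 to 0.044. Leaving out 1 rat gave 0 to 10, 2 to 12 and 86 to 132 genes.

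Of 180 marker values with 1 rat left out, 42 changed sign, with the cause not tested. For model against control the values ran from -0.56 to 0.21 for Clec4f, -0.51 to 0.17 for Vsig4, -0.65 to 0.12 for Adgre1, -0.24 to 0.18 for C1qa, -0.37 to 0.038 for C1qb and -0.37 to 0.011 for C1qc. For HME against model they ran from -0.24 to 0.24 for Clec4f, -0.23 to 0.44 for Vsig4, -0.14 to 0.73 for Cd163, -0.26 to 0.40 for Csf1r, -0.18 to 0.58 for Adgre1, -0.20 to 0.15 for C1qa, -0.15 to 0.24 for C1qb, -0.15 to 0.21 for C1qc and -0.0037 to 0.36 for Cd68. For HME against control they ran from -0.55 to 0.22 for Clec4f, -0.24 to 0.11 for Vsig4, -0.25 to 0.13 for Adgre1, -0.22 to 0.15 for C1qa, -0.26 to 0.032 for C1qb, -0.32 to 0.051 for C1qc and -0.16 to 0.13 for Cd68. Marco in each comparison, Cd163 and Csf1r against control and Cd68 in model against control kept their sign whichever rat was left out, and Cd163 in model against control ran from -1.04, without model 2, to -0.16. With 3 rats a group, the 95% intervals allow changes past a log2 of 0.5 in at least 1 direction for each marker in model against control.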
